A study of Mus musculus with 59 samples.

Results

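Chemokine ligands are small secreted proteins that bind G protein-coupled receptors and steer the movement of leukocytes. They are grouped as CC, CXC, C and CX3C ligands by the spacing of their first cysteines, and by use as inflammatory ligands, which are made when tissue is injured or infected, and homeostatic ligands, which hold lymphocytes and resident cells in place. Receptors are shared: several ligands act on 1 receptor, and atypical receptors take ligands up without passing on the usual signal. In the lung, epithelium, endothelium and macrophages each make a characteristic set.

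The members were all probes whose accession maps to a RefSeq symbol beginning Ccl or Cxcl followed by a digit, or to Cx3cl1 or Xcl1. The rule found 43 probes of 36 genes, out of 55681 probes for 37163 genes or unnamed transcripts on the array. It used names only, but the members and lists were chosen with earlier results of these data known. Some members were named below after their values were seen. A gene was represented by its probe with the brightest mean Cy5 signal, and 5 members had more than 1 probe. Ccl21a, Ccl21b and Ccl27a have near-identical genomic copies, so their signals may be shared with those copies. Cxcl11, Ccl21c, Ccl21d and Ccl27b were not analysed here.

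Lung, liver and forestomach came from male MutaTMMouse animals, a transgenic mutation reporter strain, aged about 16 weeks. All were gavaged for 28 days with olive oil, the vehicle, holding 0, 25, 50 or 100 mg/kg-bw/day of benzo(b)fluoranthene (BbF), a polycyclic aromatic hydrocarbon that binds the aryl hydrocarbon receptor, and the tissues were taken 72 h after the last dose, with RNA drawn from random sections of each. The groups are called vehicle, low, medium and high dose, and 1 label field of the exposed samples names benz(a)anthracene in place of BbF. Each of the 12 tissue and dose groups held 5 mice, except the low-dose lung group with 4, which gave 59 arrays. Each array set Cy5-labelled tissue RNA against the same Cy3-labelled reference RNA from 11 mouse cell lines, without a dye swap, and every level below is log2(Cy5/Cy3) after loess normalisation. A probe counted as well above background when the scanner software marked its Cy5 spot so. A log2 ratio near 0 for a probe that is not well above background is no measure of level, and in whole tissue fewer cells of a type and less RNA per cell cannot be told apart.

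The arrays of 1 slide and 1 tissue stood apart. The 8 arrays of the third liver slide had 10.7% to 12.9% of probes well above background, against 37.1% to 46.2% on the other liver slides, and 3 to 5 members against 17 to 20. In forestomach, markers of the glandular stomach (Cblif, Atp4a, Muc5ac and Tff1), a neighbouring tissue, differed between arrays within each dose group, so that their mean log2 ratio ran from 0.41 to 7.00. The squamous markers that define forestomach had a mean log2 ratio of 4.32 to 4.90 on its vehicle arrays. In 1 low-dose lung, of mouse 6, the squamous markers had a mean of 3.31, while the highest on any other lung array was -0.08.

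The lung had the widest set of ligands above background. Of the 36 members, 25 were well above background on every lung array, 18 on every forestomach array and 3 (Ccl9, Ccl21b and Cxcl12) on every liver array. The third slide limited the liver count, with 3 to 5 members on each array against 17 to 20 on the other liver slides. Of all probes, 44.8% to 52.7% were well above background on lung arrays, except for 68.8% on that of medium-dose mouse 13. On forestomach arrays 39.6% to 52%, and on those other liver slides 37.1% to 46.2%, were well above background. Ccl1, Ccl20 and Ccl22 were so on none of the 59 arrays, and 4 more (Ccl26, Ccl28, Cxcl2 and Cxcl3) on 1 to 5 arrays. These 7 are attractants of T helper cells, eosinophils, mucosal lymphocytes and neutrophils.

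In vehicle mice, limma with the Benjamini-Hochberg adjustment called 19 members between lung and liver, 14 higher in lung and 5 higher in liver, at an adjusted p of 0.05 or less and at least 1.5-fold. Of all genes 29.1% were called in that comparison, 17.4% higher in lung and 11.7% higher in liver. Lung and forestomach differed in 15 members, 14 of them higher in lung, where 23% of all genes were called, 12.1% higher in lung and 10.9% lower. Forestomach and liver differed in 15 members, 8 higher in forestomach and 7 higher in liver, where 24.4% of all genes were called, 14.6% higher in forestomach and 9.83% lower. With arrays only centred on their median these splits were 12 and 1, 9 and 2, and 7 and 4. Without the third liver slide, which held the array of vehicle mouse 5, lung and liver differed in 21 members, with Cxcl9 and Ccl27a added. Forestomach and liver then differed in 18, with Ccl2, Cx3cl1 and Cxcl9 added. The shares of all genes called were not counted for either of these settings. The 3 probes of Ccl27a disagreed: with all arrays, lung minus liver was -0.37 for the brightest, -0.01 for another and 0.73 for the last (adjusted p = 0.315, 0.980 and 0.00306). The plot of vehicle levels shows that the lung point was the upper one for most members called.

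**Figure D1:**
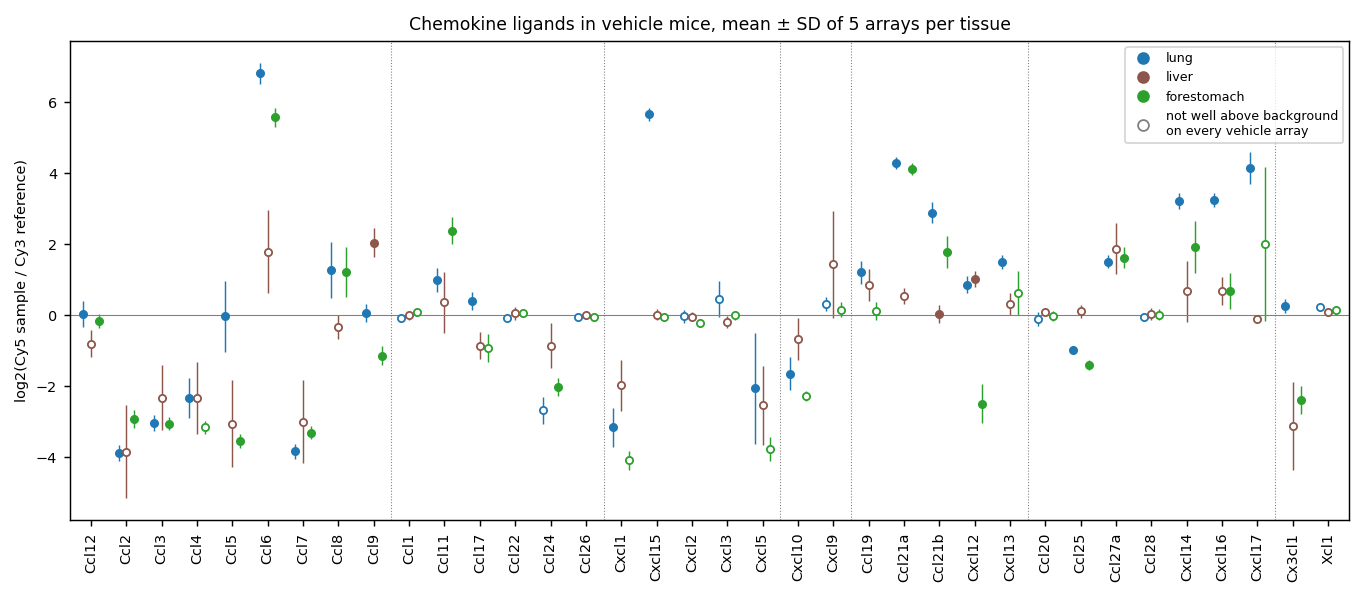
Levels of the 36 chemokine ligands in vehicle mice as log2(Cy5/Cy3), mean ± SD over 5 arrays for each tissue, ordered by role with dotted lines between roles; open points were not well above background on every vehicle array. Cxcl15 stood at 5.67 in lung and near 0 in the other tissues, Ccl11 was highest in forestomach and Ccl9 in liver.

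Cxcl15, known as lungkine and made by airway epithelium, had a log2 ratio of 5.45, 5.78, 5.49, 5.82 and 5.81 in the vehicle lungs of mice 1 to 5. It was not well above background on any vehicle array of liver or forestomach. The lung signal was at least 207-fold that of liver and at least 198-fold that of forestomach, from the normalised Cy5 channel and the lowest signal called above background, with adjusted p of 6.23e-16 and 2.44e-16 for the log2 ratios. Across the doses Cxcl15 moved little in lung, by 0.05 ± 0.15 (log2, SE) at the high dose.

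Cxcl17, a mucosal ligand of the stomach and airway, was at 4.16 ± 0.45 (SD, n = 5) in vehicle lung. It was not well above background on any liver array of that group. Against the same floor, lung was 23.4-fold above liver, again not a strict bound. Cxcl16, a transmembrane ligand of Cxcr6, stood at 3.25 ± 0.20 in lung, 0.68 ± 0.39 in liver and 0.67 ± 0.51 in forestomach. Cxcl14, an epithelial ligand, stood at 3.23 ± 0.23, 0.68 ± 0.86 and 1.92 ± 0.73 in the same order. Both were called higher in lung than in either other tissue, and without the third liver slide they were 5.24-fold and 5.28-fold higher in lung than in liver (adjusted p = 1.37e-08 and 3.72e-05). Cxcl14 lost its call against forestomach without mouse 4, at 1.24 and an adjusted p of 0.0776, and Cxcl17 lost it without mouse 2, 3 or 5, with adjusted p of 0.199, 0.119 and 0.106.

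Cx3cl1 (fractalkine), a membrane-bound ligand of endothelium and epithelium, and Ccl5 (RANTES), a ligand made by T cells and NK cells, were also higher in lung. Cx3cl1 was 10.4-fold higher in vehicle lung than in liver (3.38 ± 0.43 log2, SE, adjusted p = 7.75e-06) and 6.22-fold higher than in forestomach (adjusted p = 0.000136). Ccl5 was 8.16-fold and 11.5-fold higher (adjusted p = 0.000167 and 5.25e-05). The lung values of Ccl5 spread widely, from -1.38 to 1.41, and overlapped the liver values only through mouse 5, whose liver array lay on the third slide. Without that slide Cx3cl1 was 15.2-fold and Ccl5 11.6-fold higher in lung than in liver (adjusted p = 2.80e-12 and 5.07e-07).

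Ccl6 and Ccl9 are macrophage ligands of rodents. Ccl6 was at 6.82 ± 0.30 in vehicle lung, 5.57 ± 0.27 in forestomach and 1.79 ± 1.17 in liver, and all 3 pairs of tissues were called, with lung 23.6-fold above liver without the third slide. Ccl9 led in liver: its log2 ratio was 2.13, 2.37, 2.21, 2.19 and 1.34 in mice 1 to 5, against 0.07 ± 0.26 in lung and -1.13 ± 0.28 in forestomach. Liver was above lung by 3.93-fold and above forestomach by 9.07-fold (adjusted p = 2.96e-07 and 1.34e-09). The liver values did not overlap those of either other tissue, even with the dim array of mouse 5.

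Ccl11 (eotaxin), the chief attractant of eosinophils, led in forestomach. Its log2 ratio there was 3.01, 2.23, 2.04, 2.18 and 2.45 in mice 1 to 5, against 0.99 ± 0.34 in lung. Forestomach exceeded lung by 2.63-fold (adjusted p = 0.00331), and the groups did not overlap. On liver arrays it was well above background in 1 vehicle mouse. Ccl17, a ligand of Ccr4, had its highest vehicle level in lung (0.40 ± 0.27), and Ccl24, a second eotaxin, in liver (-0.86 ± 0.63, against -2.68 ± 0.38 in lung).

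Among the homeostatic ligands, Ccl21a, which draws Ccr7-bearing cells, stood at 4.29 ± 0.16 in lung and 4.12 ± 0.16 in forestomach, which was not called, and was 13.4-fold lower in liver than in lung. Cxcl13, the B-cell attractant, was higher in lung (1.5 ± 0.20) than in liver (0.32 ± 0.32) and forestomach (0.63 ± 0.63). It was well above background on only 1 of 5 vehicle liver and 2 of 5 vehicle forestomach arrays, so those 2 means are weak measures of level. Cxcl12, the ligand of Cxcr4 that retains stem cells, was at 0.87 ± 0.23 in lung, 1.03 ± 0.22 in liver and -2.49 ± 0.54 in forestomach. Its 2 probes, which match different transcripts, disagreed on lung. The brighter probe put lung 3.35 above forestomach and the other put lung 0.69 below it (adjusted p = 3.63e-09 and 0.00205). Against liver, forestomach was called lower by both.

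BbF moved few ligands, and with loess values, all arrays and no slide in the model every call was in lung. No member was called at the low or medium dose in lung, where 0.433% and 0.584% of all genes were called. At the high dose 3 members, Cx3cl1, Ccl5 and Cxcl5, were downregulated and none was upregulated, against 0.511% of all genes downregulated, 1.25% upregulated and 1.77% in either direction. They came from the monocyte group (1 of 9), the Cxcr2 ligands (1 of 5) and the pair of Cx3cl1 and Xcl1, and none of the eosinophil, interferon-inducible, homeostatic or epithelial ligands was called. Among these classes, Ccl1, Ccl20, Ccl22 and Ccl28 were well above background on no lung array. Ccl26 was so on 1, Cxcl2 on 4, and Cxcl3 and Cxcl9 on 5, so the lack of a call for them says little. The p-values of the calls measure the spread between mice as labelled. The linear trend over dose called 2 of them, Cx3cl1 and Ccl5, against 0.428% of all genes downregulated, 1.07% upregulated and 1.49% in either direction. The median change over the 36 members at the high dose was 0.01, beside 0.00 over all genes, with 19 of 36 higher. When arrays were only centred on their median, without the intensity-dependent correction, the high-dose calls in lung were 3 upregulated members (Ccl6 by 0.60, Ccl9 by 0.83 and Cxcl10 by 1.02) and none downregulated, and Cx3cl1, Ccl5 and Cxcl5 all lost their calls (adjusted p = 0.0803, 0.0504 and 0.0971) while staying negative. The direction of the calls thus depended on that correction. The share of all genes called was not counted under median centring. By trend under median centring Cx3cl1 was still called (-0.68, adjusted p = 0.0414).

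**Figure D2:**
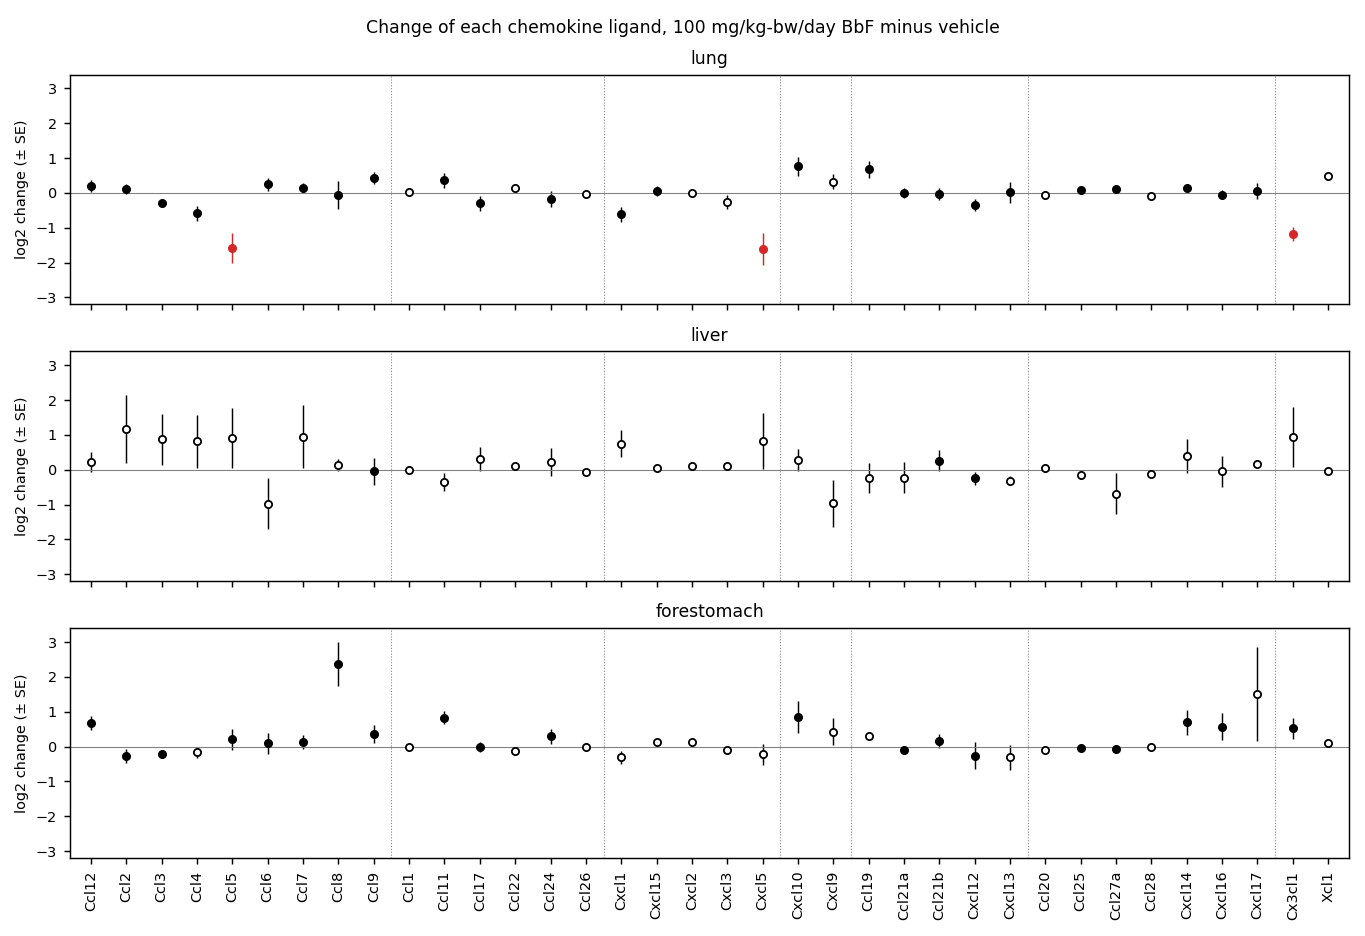
Change of each chemokine ligand at 100 mg/kg-bw/day BbF against vehicle in lung, liver and forestomach, as log2 difference ± SE, in the same order of roles; red points were called, and open points mark ligands for which neither the vehicle nor the high-dose group was well above background throughout. Cx3cl1, Ccl5 and Cxcl5 in lung lay between -1.62 and -1.18, and Ccl8 in forestomach lay at 2.37 without being called.

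Cx3cl1 fell with dose. In vehicle lungs of mice 1 to 5 its log2 ratio was 0.28, 0.35, 0.03, 0.10 and 0.54, and in the high-dose lungs of mice 16 to 20 it was -0.27, -1.10, -0.54, -1.06 and -1.61. Every high-dose mouse lay below every vehicle mouse. The fall was 2.26-fold (-1.18 ± 0.20 log2, SE, adjusted p = 0.000867), after -0.25 at the low dose (-0.22 without mouse 6) and -0.62 at the medium dose, and the trend was -1.19 for each 100 mg/kg-bw/day (adjusted p = 0.000305). At the medium dose the groups did not overlap either, at an adjusted p of 0.117.

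Within the 3 lung slides the high-dose difference of Cx3cl1 was -1.0, -0.61 and -1.87, and leaving out any 1 mouse kept it between -1.34 and -1.0 with adjusted p of at most 0.00387. Under median centring alone it was -0.63 with an adjusted p of 0.0803. Of the 3 endothelial markers, Pecam1 rose by 0.74 (adjusted p = 0.00250) and Cdh5 by 0.82 (adjusted p = 0.0131), while Kdr differed by -0.20 ± 0.13 (adjusted p = 0.445). The mean log2 ratio of all 3 ran from 3.55 to 3.85 in vehicle and from 3.86 to 4.37 in high-dose lungs.

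Cx3cl1 had the smallest adjusted p among the members under BbF. Ccl8 was higher in high-dose forestomach without being called, and Cxcl15 was high in vehicle lung alone. No promoter was matched for Ccl11, which had the smallest p in high-dose forestomach. The promoters of Cx3cl1, Ccl8 and Cxcl15 are shown. They are the 250 bases before the RefSeq start (GRCm38.p6) on the strand of the gene, with capitals marking TATAAA on that strand, GCGTG, the core of the site bound by the aryl hydrocarbon receptor, on both strands, and the NF-kappaB consensus on both strands. Cx3cl1 lies at chr8:94771930-94772179 (+), Ccl8 at chr11:82114935-82115184 (+) and Cxcl15 at chr5:90794284-90794533 (+).
Cx3cl1: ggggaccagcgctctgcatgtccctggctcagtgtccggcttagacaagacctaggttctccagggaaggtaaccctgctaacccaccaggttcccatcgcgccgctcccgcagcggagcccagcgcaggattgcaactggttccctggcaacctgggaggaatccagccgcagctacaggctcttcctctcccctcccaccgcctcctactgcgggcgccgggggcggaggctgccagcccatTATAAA
Ccl8: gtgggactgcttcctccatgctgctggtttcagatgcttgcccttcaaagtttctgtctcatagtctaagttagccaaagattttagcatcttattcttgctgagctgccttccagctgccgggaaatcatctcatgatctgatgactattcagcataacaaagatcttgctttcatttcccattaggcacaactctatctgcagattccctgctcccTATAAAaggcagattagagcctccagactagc
Cxcl15: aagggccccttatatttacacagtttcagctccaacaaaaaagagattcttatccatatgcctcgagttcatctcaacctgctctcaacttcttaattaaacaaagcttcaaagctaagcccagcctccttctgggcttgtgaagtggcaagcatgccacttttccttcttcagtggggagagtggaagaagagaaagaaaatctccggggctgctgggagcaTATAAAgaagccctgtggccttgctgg
All 3 hold TATAAA, at 6, 32 and 27 bases before the start, and none holds GCGTG or the NF-kappaB consensus in this window. Promoters were matched for 26 of the 36 members, 29 promoters in all, of which 11 held GCGTG, 7 the NF-kappaB consensus and 9 TATAAA. Of 32851 promoters in the table, 28.2% held GCGTG, 5.93% the NF-kappaB consensus and 7.59% TATAAA. A match of letters is a description and not a site.

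The receptor of Cx3cl1 fell as well. Cx3cr1, carried by monocytes and NK cells, had a log2 ratio of 3.89, 3.53, 3.79, 3.98 and 3.97 in vehicle and 2.65, 2.53, 2.75, 3.53 and 2.70 in high-dose lungs. The lowest vehicle mouse and the highest high-dose mouse were at about the same level. The change was -1.0 ± 0.21 (adjusted p = 0.00488).

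Ccl5 was lower in most high-dose lungs. Its log2 ratio was -1.38, -0.21, 0.17, 1.41 and -0.13 in vehicle mice and -1.88, -2.54, -1.59, -0.03 and -1.99 in high-dose mice. Mouse 19 of the high dose lay within the vehicle range, and the other 4 high-dose mice lay below every vehicle mouse. The change was 2.99-fold lower (-1.58 ± 0.43, adjusted p = 0.0313), and within slides it was -1.42, -2.38 and -0.88.

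The call of Ccl5 was lost on leaving out any of 7 of the 10 mice (3, 4, 5, 16, 17, 18 or 20), with adjusted p of 0.0516 to 0.101. Markers of NK cells moved with it. Gzma, a granzyme of NK and cytotoxic T cells, had a log2 ratio of 4.70, 5.43, 5.59, 6.71 and 5.65 in vehicle and 2.81, 1.5, 3.31, 5.02 and 1.98 in high-dose lungs. Mouse 4 was the highest vehicle mouse and mouse 19 the highest high-dose mouse for both genes. Of the 4 NK markers 3 were downregulated (Gzma by 2.69, adjusted p = 0.00313, with Klrb1c and Ncr1), and their mean log2 ratio ran from 1.71 to 2.68 in vehicle and from 0.64 to 1.86 in high-dose lungs. Ncr1 was well above background on 5 of 5 vehicle and 0 of 5 high-dose arrays. Their part in the change of Ccl5 was not tested.

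Cxcl5, an epithelial attractant of neutrophils that acts on Cxcr2, rested on a wide vehicle group. Its log2 ratio was -2.28, 0.67, -3.14, -2.73 and -2.83 in vehicle lungs, and -3.66, -3.94, -3.94, -3.76 and -3.08 in high-dose lungs. Mouse 2 stood alone, and without it the groups still met, since mouse 20 was above vehicle mouse 3. The change was -1.62 ± 0.46 (adjusted p = 0.0398) with mouse 2 and -0.93 ± 0.19 (adjusted p = 0.00560) without it, and the trend of -1.42 was not called (adjusted p = 0.0789). The trend was called with the slide as a block (-1.51, adjusted p = 0.0488), with only probes well above background (adjusted p = 0.0398) and without mouse 2 (-0.83, adjusted p = 0.0109).

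Leaving out mouse 1, 16, 17, 18 or 19 ended the call of Cxcl5, with adjusted p of 0.0637 to 0.0934. Within slides its difference was -3.00, -1.01 and -0.59. Cxcl1, which shares the receptor, was 0.61 ± 0.22 lower at the high dose (adjusted p = 0.106) and of like size at the other doses (-0.63 and -0.59). Of the 4 neutrophil markers, S100a8 rose by 1.20 (adjusted p = 0.0401) and Retnlg by 1.26 (adjusted p = 0.0262). The median log2 ratio of S100a9 was 6.83 in vehicle and 7.28 in high-dose lungs, and the groups overlapped. That of Mpo was -0.22 and -0.21, with the probe well above background on 1 of 5 and 0 of 5 arrays. The receptor Cxcr2 differed by 1.04 (adjusted p = 0.0791).

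**Figure D3:**
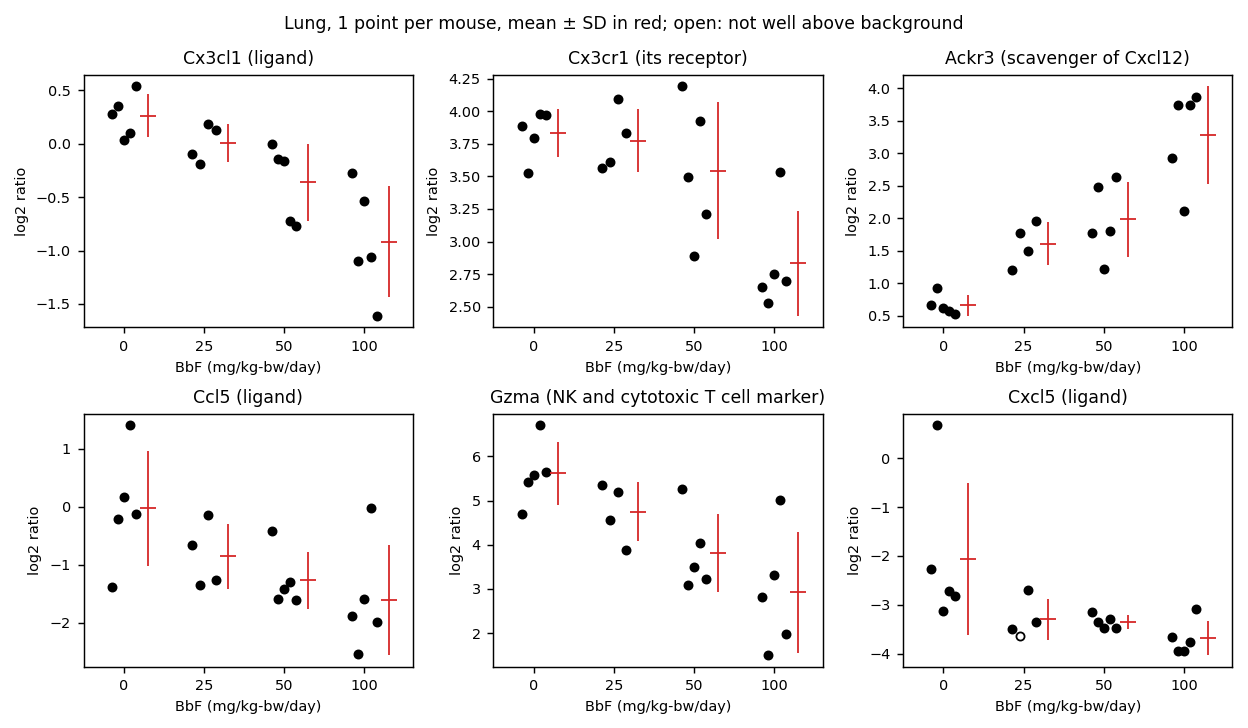
Log2(Cy5/Cy3) in lung against BbF dose in mg/kg-bw/day for Cx3cl1, its receptor Cx3cr1, the scavenger receptor Ackr3, Ccl5, the marker Gzma and Cxcl5, with 1 point for each mouse and mean ± SD in red; the open point was not well above background. Cx3cl1 and Ackr3 moved in opposite directions with dose, Ccl5 and Gzma shared their highest mice, and Cxcl5 had 1 vehicle mouse at 0.67.

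Xcl1, the lymphotactin of T and NK cells that draws cross-presenting dendritic cells, was near background. Its log2 ratio was 0.11, 0.34, 0.16, 0.19 and 0.37 in vehicle lungs, none well above background, and 0.51, 0.83, 0.56, 0.59 and 1.15 in high-dose lungs, 3 of them well above background. The groups did not overlap, and the fit gave an adjusted p of 0.00702. As no vehicle array measured Xcl1, its fold is not known. In the Cy5 channel, with vehicle signals raised to the floor used for Cxcl15, it was 1.16-fold. That value is not a bound, as the high-dose mean includes arrays not well above background.

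The remaining lung ligands gave no call with all mice and loess values. Cxcl10, an interferon-inducible ligand of Cxcr3, was at -1.56, -1.59, -1.61, -1.06 and -2.38 in vehicle and -1.96, -0.23, -1.41, -0.43 and -0.37 in high-dose lungs. Mice 17, 19 and 20 lay above all vehicle mice and the others did not, and the difference was 0.76 ± 0.27 (adjusted p = 0.100). Without mouse 16 it was 1.03 and called (adjusted p = 0.00793). Ccl19, a second ligand of Ccr7, differed by 0.67 ± 0.25 (adjusted p = 0.130), and its trend was called without mouse 18 (0.80, adjusted p = 0.0491). Ccl3 differed by -0.30 and Ccl4 by -0.58, and Ccl4 was called without mouse 1 (-0.75, adjusted p = 0.0445). Ccl25, a ligand of Ccr9, was the nearest to a call at the medium dose, at 0.31 ± 0.08 (adjusted p = 0.0598), and Cxcl1 was the member with the smallest p at the low dose (adjusted p = 0.349, or 0.600 without mouse 6). Without that mouse no member was called at the low dose.

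Cxcl13 showed no ordered change. Its log2 ratio in vehicle lungs was 1.40, 1.76, 1.64, 1.43 and 1.27, in medium-dose lungs 0.71, 0.65, 0.61, 0.90 and 0.54, and in high-dose lungs 0.76, 1.82, 0.91, 0.91 and 3.18. The medium-dose mice all lay below the vehicle mice, while the high-dose mice lay on both sides of them. The medium-dose difference was -0.82 ± 0.30 (adjusted p = 0.197) and the high-dose difference 0.02 ± 0.30. Cxcl12 was lower by 0.33 ± 0.17 at the high dose (adjusted p = 0.319) by its brighter probe and higher by 0.37 by the other.

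Receptors moved more often than ligands in the high-dose lung, 2 upregulated and 2 downregulated of 18, beside 1.77% of all genes called in either direction. The shares were not tested against each other. Ccr7, the receptor of Ccl19 and Ccl21 on dendritic and naive T cells, rose by 1.20 ± 0.18 (adjusted p = 0.000296), and its 5 high-dose values, 4.18 to 4.73, lay above the 5 vehicle values, 2.92 to 3.61. Cxcr5, the receptor of Cxcl13 on B cells, rose by 1.33 ± 0.32 (adjusted p = 0.0135). Cxcr6, the receptor of Cxcl16, fell by 0.66 ± 0.13 (adjusted p = 0.00397), and with Cx3cr1 it formed the downregulated pair. For the ligands of these receptors other than Cx3cl1, namely Ccl19, Ccl21a, Ccl21b, Cxcl13 and Cxcl16, no change was called. Under median centring Cx3cr1 and Cxcr6 lost their calls (-0.58 and -0.38), and Ccr7 and Cxcr5 did not.

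Of the 5 atypical receptors, 1 rose and 1 fell. Ackr3, which scavenges Cxcl12, had a log2 ratio of 0.66, 0.93, 0.62, 0.57 and 0.52 in vehicle and 2.92, 3.75, 2.10, 3.75 and 3.86 in high-dose lungs. The groups were well apart, with the low-dose mice already above all vehicle mice, at 1.21 in mouse 6 and 1.49 to 1.96 in the others. The change was 2.62 ± 0.28 (adjusted p = 8.67e-06). Ackr4, which scavenges Ccl19, Ccl21 and Ccl25, fell by 1.08 ± 0.18 (adjusted p = 0.000706). Of 13 inflammatory cytokines and NF-kappaB targets only Il1b was called, up by 1.14 ± 0.29 (adjusted p = 0.0200). None of 9 genes of the interferon gamma list, 5 lymphotoxin and B-cell survival genes or the platelet chemokines Pf4 and Ppbp was called.

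In forestomach limma called no member at any dose, where 0% of all genes were called at the low and medium dose, 0.0996% at the high dose and 0.0861% by trend. Ccl11, Ccl8 and Ccl12 had the smallest p at the high dose. Ccl8, a monocyte ligand of the cluster that also holds Ccl11 and Ccl12, had a log2 ratio of 1.01, 0.34, 1.42, 2.28 and 1.05 in vehicle mice, 2.60, 2.33, 2.50, 2.68 and 4.55 in medium-dose mice and 2.92, 2.85, 3.99, 3.92 and 4.25 in high-dose mice. Both of these dose groups lay wholly above the vehicle group, while low-dose mouse 7 had the highest value of all (5.38). The high-dose difference was 5.15-fold (2.37 ± 0.64, adjusted p = 0.212), and within the 3 slides it was 2.29, 2.21 and 2.83. The trend of 2.24 (adjusted p = 0.181) was called without mouse 7 (2.48, adjusted p = 0.0161). The study itself listed Ccl8 among its called genes for BbF in forestomach at the high dose, with a similar fold. Its call came from an Fs test that was not run here, where limma was used in its place.

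Ccl11 was at 3.1, 3.09, 3.62, 3.09 and 3.13 in high-dose forestomach, above every vehicle mouse. The difference was 1.77-fold (0.82 ± 0.19, adjusted p = 0.117). It was called without mouse 1 (0.98, adjusted p = 0.0268) and under median centring (0.76, adjusted p = 0.0377). Ccl12, a monocyte ligand related to Ccl2, differed by 0.68 ± 0.21 (adjusted p = 0.275), with overlap between the groups. With the glandular stomach score as a covariate, chosen after these markers were seen, Ccl8 was at 2.51 (adjusted p = 0.0681) and Ccl11 at 0.79 (adjusted p = 0.0623), and no member was called.

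Cxcl17 in forestomach followed the glandular stomach markers and not the dose. On the 8 arrays with Atp4a under 2, Cxcl17 lay between -0.11 and 1.08, and on the other 12 it lay between 3.77 and 4.90. All 4 dose groups held arrays of both kinds. Vehicle mouse 3 lay between them by its score (4.06), with Cblif at 5.55, Atp4a at 1.85 and Cxcl17 at 1.08. The slope of Cxcl17 on the score was 0.90 ± 0.04 (adjusted p = 3.47e-12). Slopes of 10 of the 36 members passed an adjusted p of 0.05, beside 17.1% of all genes; those of Cx3cl1 (0.18), Cxcl16 (0.23), Cxcl14 (0.16), Cxcl12 (0.16) and Ccl25 (0.04) were positive, and those of Ccl6 (-0.16), Ccl24 (-0.11), Ccl9 (-0.12) and Ccl7 (-0.10) negative. Without the vehicle arrays of mice 1 and 4, which were high in all 4 markers, vehicle Cxcl17 was 3.70 higher in lung than in forestomach (adjusted p = 6.15e-08). With them it was 2.16 higher (adjusted p = 0.0323). The array of mouse 3, high in Cblif, was kept in both settings.

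**Figure D4:**
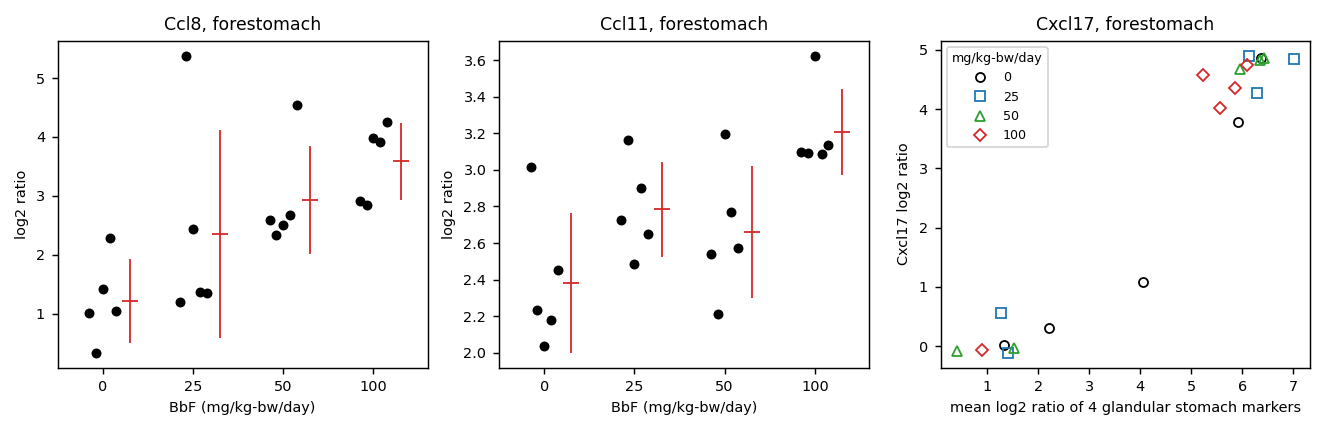
Forestomach log2(Cy5/Cy3) of Ccl8 and Ccl11 against BbF dose in mg/kg-bw/day, 1 point for each mouse with mean ± SD in red, and of Cxcl17 against the mean log2 ratio of 4 glandular stomach markers, with a symbol for each dose. For Ccl8 and Ccl11 the high-dose points did not overlap the vehicle points. Cxcl17 was above 3.7 on every array with Atp4a above 2, whatever the dose. It was at 1.08 in vehicle mouse 3, whose marker mean was 4.06.

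In liver no member was called at any dose with all arrays and no slide in the model, where 0% of all genes were called at the low and medium dose, 0.00538% at the high dose and 0.0135% by trend. The smallest p among members well above background belonged to Ccl21b at the low and medium dose (0.17 ± 0.29 and 0.27 ± 0.29) and Cxcl12 at the high dose (-0.25 ± 0.18), with adjusted p of 0.715 or more. The log2 ratios of the third slide were drawn towards 0, so that Ccl5 was -1.22 to -0.92 there and -3.96 to -2.75 on the other slides.

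Without the third slide Cxcl16 was called in liver. On the first 2 slides its log2 ratio was 1.0, 0.76, 0.85 and 0.82 in vehicle mice, 1.57, 1.36 and 1.39 in low-dose mice, 1.65, 1.67 and 1.56 in medium-dose mice, and 1.40 and 1.71 in high-dose mice. Every exposed mouse lay above every vehicle mouse there. On the third slide the probe was not well above background on any of 8 arrays, and all values lay between -0.23 and 0.39. The differences without that slide were 0.58 ± 0.10, 0.77 ± 0.10 and 0.70 ± 0.11 for the low, medium and high dose, with adjusted p of 0.111, 0.00166 and 0.00644, beside 0%, 0.49% and 0.969% of all genes called (0.398% and 0.821% upregulated at the medium and high dose). The trend was 0.74 ± 0.17 (adjusted p = 0.0383), beside 1.17% of all genes called and 0.998% upregulated. With the slide as a block and all arrays kept, the medium dose was called too (0.61 ± 0.12, adjusted p = 0.0263). Cxcl16 was looked at here after its values were seen.

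**Figure D5:**
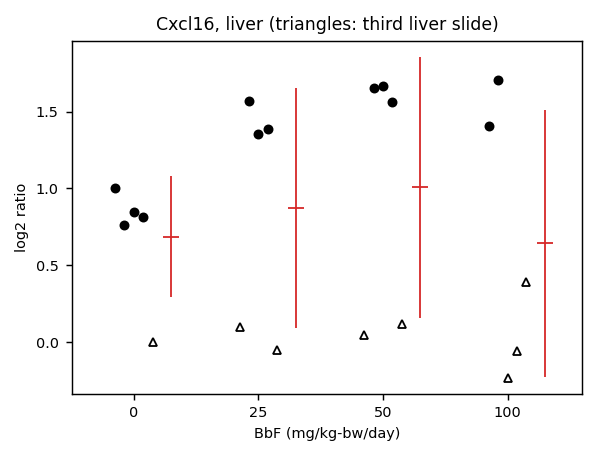
Log2(Cy5/Cy3) of Cxcl16 in liver against BbF dose in mg/kg-bw/day, 1 point for each mouse, with triangles for the third liver slide, open symbols where the probe was not well above background, and mean ± SD over all arrays in red. On the other slides all exposed mice, 1.36 to 1.71, lay above the vehicle mice, 0.76 to 1.0.

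The high-dose effect was then compared between tissues in 1 model over all arrays. That model estimated 1 spread for each probe over the 3 tissues together, with the third liver slide included. For Cx3cl1 the SD within a group was 1.23 to 1.57 in liver, 0.18 to 0.52 in lung and 0.39 to 0.59 in forestomach. The test of lung against forestomach thus carried the spread of liver as well. No member was called, where 0.487%, 0.525% and 0.0807% of all genes were called for lung against liver, lung against forestomach and forestomach against liver. The difference of Cx3cl1 between lung and forestomach was -1.70 ± 0.80 (adjusted p = 0.649). With the slide as a block it was -1.66 ± 0.31 (adjusted p = 0.000678), and Ccl5 (-1.77, adjusted p = 0.0282) and Ccl8 (-2.54, adjusted p = 0.0388) were called with it. The changes of these 3 ligands in lung and forestomach thus passed the test of their difference in the fit with slides and not in the fit without.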

How the data were processed

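The deposited files were two-colour scanner outputs of Feature Extraction 10.7.3.1, 1 for each array, with median spot intensity per channel before background subtraction. The authors also deposited a table of log2 ratios, used as an alternative (r with the values used here 0.967 to 0.999, column medians -0.041 to -0.00718; the study's methods state LOWESS on medians not corrected for background, and its centring and Cy5 over Cy3 direction were read from these values). Intensities were normalised by loess within each array, with control and non-uniform spots at weight 0, and spots of a probe were averaged. The methods' Fs test was not run, and limma 3.58.1 in R 4.3.3 was used in its place, within each tissue, with Benjamini-Hochberg adjustment over all 55681 probes, a threshold of 0.05 and 1.5-fold. Accessions were named through RefSeq (GRCm38.p6), which gave 26413 probes a symbol. The number of arrays limits the precision, and the 3 dose comparisons of a tissue share its vehicle mice. The fits were tested on simulated data. The members and lists were chosen with earlier results of these data known. Members were named where called in a dose comparison or trend, where they had the smallest p of a dose comparison among those above background, where they led a vehicle tissue (up to 6), and in any case Cxcl12, Cxcl13, Cxcl15, Cx3cl1 and Xcl1; others were named after their values were seen. Mouse numbers mark the same animal in each tissue, and deviations of same-numbered arrays correlated at -0.189 to 0.154. Alternatives were normexp (offset 50), median centring, the authors' values, slide or mouse as a block, filters, and leaving out each mouse.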

Additional observations from a re-analysis of the deposited data

Results flagged for a closer look

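In 9 of 44 groups of named members, 1 mouse lay farther from the rest than Dixon's criterion allows, which chance gives in about 1 in 20 groups. In vehicle lung these were Cxcl5 in mouse 2 (0.67, nearest value -2.28), Cxcl14 in mouse 3 (2.83, nearest 3.3) and Ccl11 in mouse 3 (0.39, nearest 1.06). In medium-dose lung it was Ccl5 in mouse 11 (-0.42, nearest -1.30). In vehicle liver, mouse 5, the only vehicle liver on the third slide, stood apart for Ccl21b (0.48, nearest -0.02), Cxcl16 (-0.0016, nearest 0.76) and Ccl9 (1.34, nearest 2.13). In forestomach these were Ccl8 in medium-dose mouse 15 (4.55, nearest 2.68) and Ccl11 in high-dose mouse 18 (3.63, nearest 3.14).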

How the results depend on the processing

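The counts of members called for lung at the low and medium dose, forestomach at the low and medium dose, liver at the low dose and all vehicle comparisons moved by at most 1.5 times under the background, normalisation, filter, slide and mouse block alternatives. In lung at the high dose the count stayed at 3 under median centring, but they were Ccl6, Ccl9 and Cxcl10, all up, in place of Cx3cl1, Ccl5 and Cxcl5, all down. The lung trend gave 4 calls under median centring, where Ccl9, Cxcl10 and Ccl6 were called up. Liver gave 1 call at the medium dose with the slide as a block, and 1 each at the medium dose, the high dose and by trend without the third slide, all Cxcl16. Forestomach gave 1 call at the high dose under median centring (Ccl11). The difference of the high-dose effect between lung and forestomach gave 3 calls with the slide as a block. With single mice left out, calls numbered 1 to 3 in lung at the high dose (1 without mouse 17 or 18), 1 to 3 by lung trend (1 without mouse 3, 4, 5, 17 or 20), 0 to 1 in forestomach at the high dose (Ccl11 without mouse 1), 0 to 1 by forestomach trend (Ccl8 without mouse 7) and 0 to 1 for the difference between lung and liver (Cxcl1 at -1.78, adjusted p = 0.0169, without mouse 5). The change of Ccl21b in liver reversed to -0.60, -0.0078 and -0.015 at the low dose under median centring, the slide as a block and without the third slide, and to -0.70 and -0.0058 at the medium dose under the first and the last. With the mouse as a replicate block, since mice are paired across tissues, the vehicle counts were 19, 14 and 15 for lung against liver, lung against forestomach and forestomach against liver, and the differences of the high-dose effect stayed at 0. Median centring moved the median of all genes by -0.12 in liver at the high dose and by less elsewhere. The split of vehicle calls under it was 12 up and 1 down for lung against liver, 9 and 2 for lung against forestomach, and 7 and 4 for forestomach against liver. Shares of all genes called were not counted under these alternatives, except for the liver doses and trend without the third slide. The causes were not tested. On the third liver slide few members rose above background, which limits every liver result.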
